A study of Mus musculus with 16 samples.

Results

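TNF receptor family costimulators are examined here through 9 genes, taken from a list of gene symbols, out of 26182 RefSeq genes with a curated transcript. They are the receptors Tnfrsf4 (OX40), Tnfrsf9 (CD137), Tnfrsf18 (GITR), Tnfrsf1b (TNFR2), Cd27 and Tnfrsf8 (CD30), the ligands Tnfsf8 (CD30 ligand) and Tnfsf14 (LIGHT), and the adaptor Traf1. Every peak that overlapped a gene body or the 30 kb on either side of it was collected, which gave 333 of the 214352 peaks in 12 lists. A peak that touched the 1 kb on either side of a member's transcription start site (TSS) was placed at its promoter, a peak at the TSS of another gene was kept apart, and the rest are called distal. Because neighbouring genes share their flanks, the 9 genes formed 7 loci, with Tnfrsf1b beside Tnfrsf8 and Tnfrsf4 beside Tnfrsf18, and these covered 621.54 kb of mm10.

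The libraries came from CD8+ T cells from spleens of OT1 mice, a strain in which most such cells bear 1 transgenic receptor that sees ovalbumin. Cells were activated in culture for 48 h with anti-CD3 (2 µg/ml, on the plate), anti-CD28 (2 µg/ml, in solution) and IL-2 (20 ng/ml) and then expanded in IL-2 for 3 days. Throughout, they received either vehicle (Veh) or 0.5 µM GSK2879552 (GSK), which inactivates the demethylase LSD1. Chromatin immunoprecipitation with sequencing was done for LSD1, RNA polymerase II (Pol II) and the histone marks H3K4me1, H3K4me2, H3K4me3 and H3K27ac. All cells had thus been stimulated through CD28, and no unstimulated cells or cells lacking LSD1 were analysed here. Each antibody and treatment had 1 library, so no difference between Veh and GSK has a replicate check and none was tested. The lists hold peaks and no read totals, but the study's sequencing summary gives totals for each library. By these, the Veh library was much deeper than the GSK library for H3K27ac and somewhat deeper for H3K4me2, the GSK library was deeper for H3K4me1 and the polymerase, and the depths were close for LSD1 and H3K4me3. In bulk chromatin, fewer cells with a bound site and less signal per cell cannot be told apart.

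Receptors of this family sit on activated T cells and bind trimeric ligands on antigen-presenting cells or other lymphocytes. Their cytoplasmic tails recruit TRAF adaptors, which lead to NF-κB and MAP kinase signalling and support survival, division and memory. LSD1 removes methyl groups from mono- and dimethylated H3K4 within repressor complexes. H3K4me3 marks active or poised promoters, H3K4me1 marks enhancers, and H3K27ac marks promoters and enhancers that are active.

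Markers of the labelled cell type were checked first. All 4 general T cell markers (Cd3e, Cd3g, Cd2 and Cd5) and both CD8 genes (Cd8a and Cd8b1) had promoter H3K4me3 in both treatments, while none of the 2 CD4 T cell, 4 B cell and 4 myeloid markers had a promoter peak of H3K4me3 or Pol II. The lists held 21252 LSD1 peaks in Veh and 19919 in GSK, 34387 and 40272 of H3K4me1, 15219 and 9437 of H3K4me2, 15779 and 16887 of H3K4me3, 7410 and 2751 of H3K27ac, and 15638 and 15401 of Pol II. The shorter GSK lists of H3K4me2 and H3K27ac bear on every count of those marks, and both came from the shallower library of their pair. The fold of a peak is its enrichment over the input control as MACS2 gives it, −log10 p is the strength of the call, and the fold percentile is its place among all peaks of its own list. Folds of different libraries share no scale.

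At the promoters, H3K4me3 was called at 9 of 9 members in Veh, where 50% of all genes had it, and at 8 of 9 in GSK, where 51.1% had it. H3K4me1 was called at 4 members in Veh (30.3% of genes) and 5 in GSK (36.8% of genes). LSD1 was called at 4 members in Veh (36.3% of genes) and 2 in GSK (41.6% of genes). Pol II was called at 5 in Veh (29.3% of genes) and 3 in GSK (24.9% of genes). H3K27ac was called at 3 in Veh (20.5% of genes) and at none in GSK (8.58% of genes), and H3K4me2 at 2 in Veh (39% of genes) and none in GSK (28.2% of genes). Among the 12997 genes with promoter H3K4me3 in both treatments, LSD1 was present at 69.5% in Veh and 79% in GSK and H3K4me2 at 73.5% and 53.2%, against 4 and 2 of the 9 members for LSD1 and 2 and none for H3K4me2. In the same genes H3K4me1 was present at 49.2% and 59.5%, H3K27ac at 41% and 17.2% and Pol II at 58% and 49.2%. LSD1 and H3K4me2 thus stood at smaller shares of the members than of these genes, and H3K4me1, together with Pol II and H3K27ac in Veh, near theirs, with 9 genes to count.

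Of the calls found in 1 treatment only, nearly all were in Veh. LSD1 was called in Veh only at Tnfrsf1b and Tnfsf8, a pattern of 4.44% of genes, and in GSK only at no member, a pattern of 9.74%. Pol II was called in Veh only at the same pair of genes (7.33% of genes) and in GSK only at none (2.94%). H3K27ac was called in Veh only at Tnfrsf1b, Tnfsf8 and Traf1 (12.3% of genes, with 0.332% in GSK only), H3K4me2 in Veh only at Tnfrsf8 and Tnfsf14 (12.8%, with 1.93% in GSK only), and H3K4me3 in Veh only at Tnfrsf4 (0.332%, with 1.47% in GSK only). The single call in GSK only was H3K4me1 at Cd27 (9.85% of genes). Among genes with promoter H3K4me3 in both treatments, Veh-only calls of LSD1, Pol II, H3K27ac and H3K4me2 stood at 7.21%, 13.9%, 24.4% and 23.4%. GSK-only calls of LSD1, Pol II and H3K4me1 in these genes stood at 16.7%, 5.15% and 16.2%. Of the 9 members, 22.2%, 22.2%, 33.3% and 22.2% had those Veh-only calls, so H3K4me2 was near its share of these genes. The part of the deeper Veh libraries in the Veh-only calls of H3K27ac and H3K4me2 was not tested.

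**Figure D1:**
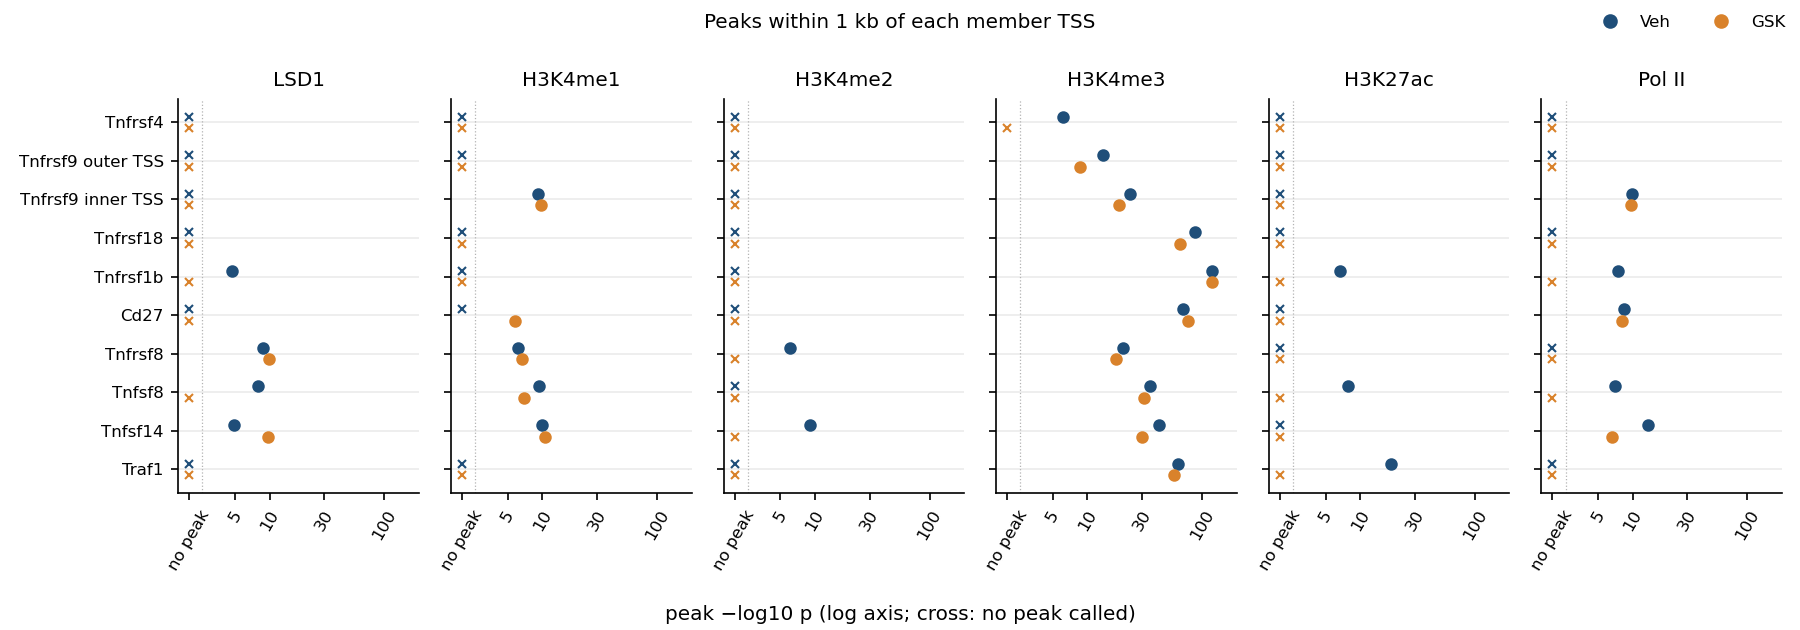
Peaks within 1 kb of each member TSS for the 6 antibodies; the horizontal log axis gives −log10 p of the strongest peak, blue points are Veh and orange points GSK, and a cross marks no call. H3K4me3 points of both treatments lie together for 8 of 9 genes, while Tnfrsf1b and Tnfsf8 have blue points and orange crosses for LSD1, H3K27ac and Pol II.

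The sequences under the strongest distal LSD1 summits are shown because the distal comparison turns on these sites. They comprise the 2 strongest regions called in both treatments, the 5 strongest called in Veh only and the strongest called in GSK only, each with the 50 bases on either side of the summit on the mm10 plus strand, taken from the Veh list, or from the GSK list for the last. Capitals mark letters that match 1 of 7 short motifs on either strand: AP-1 (TGANTCA), RUNX (TGTGGT), ETS (CCGGAAG), NF-κB (GGG and TTTCC with 2 bases between), GFI1 (AAATCAC), T-box (AGGTGTGA) and TCF (CTTTGAA).
Traf1, 22.8 kb downstream of the TSS, both treatments, chr2:34938879-34938979: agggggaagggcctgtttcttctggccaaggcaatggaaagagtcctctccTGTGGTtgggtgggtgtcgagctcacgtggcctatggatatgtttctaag
Tnfrsf8, intron 2, both treatments, chr4:145300229-145300329: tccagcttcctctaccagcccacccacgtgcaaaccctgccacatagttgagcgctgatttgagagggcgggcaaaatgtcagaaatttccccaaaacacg
Traf1, 15.6 kb upstream, Veh only, chr2:34977356-34977456: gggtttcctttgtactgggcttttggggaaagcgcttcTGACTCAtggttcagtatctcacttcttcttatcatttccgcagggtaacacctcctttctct
Tnfrsf9, intron 1, Veh only, chr4:150924413-150924513: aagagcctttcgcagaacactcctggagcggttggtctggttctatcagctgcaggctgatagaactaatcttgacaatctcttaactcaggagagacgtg
Tnfrsf1b, intron 1, Veh only, chr4:145236217-145236317: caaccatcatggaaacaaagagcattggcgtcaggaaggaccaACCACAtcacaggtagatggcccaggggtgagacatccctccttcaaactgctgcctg
Cd27, 4.77 kb upstream, Veh only, chr6:125241751-125241851: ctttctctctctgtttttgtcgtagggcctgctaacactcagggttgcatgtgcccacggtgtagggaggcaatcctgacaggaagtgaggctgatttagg
Tnfsf8, intron 2, Veh only, chr4:63847397-63847497: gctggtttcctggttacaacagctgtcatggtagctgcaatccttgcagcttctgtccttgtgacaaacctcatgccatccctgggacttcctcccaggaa
Tnfrsf9, 25.4 kb upstream, GSK only, chr4:150894748-150894848: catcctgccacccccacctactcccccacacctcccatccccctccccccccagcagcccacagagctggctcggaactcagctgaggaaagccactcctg
The Traf1 peak called in both lists and the Tnfrsf1b peak called in Veh only each held the RUNX letters, and the Traf1 peak at 15.6 kb held an AP-1 match. The other 5 windows held none of the 7. Over all 25 Veh distal summits of the member loci, 6 windows held the RUNX letters (24%), against 19% of all 12563 Veh distal windows of that length. AP-1 letters were in 2 of 25 (8%) against 7.32%, and TCF letters in 2 against 2.09%, and GFI1, ETS, NF-κB and T-box letters were in none, against 1.7%, 1.4%, 0.565% and 1.07%. Of the 6 RUNX windows, 5 belonged to the 16 peaks without a GSK peak and 1 to the 9 with one. At the 2 member promoters with GSK LSD1, both GSK summit windows held AP-1 letters, against 1.6% of 9928 GSK windows at a TSS. These counts are small, and a match of letters is not a bound site.

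The 250 bases before the TSS were compared in the same way for all member promoters. They are shown for those with LSD1 or Pol II, apart from Cd27 (RefSeq, GRCm38.p6, written 5′ to 3′ along the gene, capitals marking the same motifs). The promoters of Tnfrsf8 and Tnfsf14 had LSD1 in both treatments, those of Tnfrsf1b and Tnfsf8 in Veh only, and the inner Tnfrsf9 TSS had Pol II without LSD1. The Cd27 promoter, not shown, also had Pol II without LSD1 and held none of these motifs.
Tnfrsf8, chr4:145315165-145315414, minus strand: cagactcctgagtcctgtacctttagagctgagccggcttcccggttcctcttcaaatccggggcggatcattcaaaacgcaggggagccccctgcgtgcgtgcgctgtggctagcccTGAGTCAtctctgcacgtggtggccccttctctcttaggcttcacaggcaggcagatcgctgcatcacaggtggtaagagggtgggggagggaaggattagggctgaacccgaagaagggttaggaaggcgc
Tnfsf14, chr17:57194182-57194431, minus strand: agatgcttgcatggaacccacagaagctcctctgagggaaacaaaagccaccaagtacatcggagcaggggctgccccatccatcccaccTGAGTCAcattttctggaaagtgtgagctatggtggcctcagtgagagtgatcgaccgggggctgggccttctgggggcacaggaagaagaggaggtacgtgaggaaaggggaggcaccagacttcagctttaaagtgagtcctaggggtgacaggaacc
Tnfrsf1b, chr4:145246871-145247120, minus strand: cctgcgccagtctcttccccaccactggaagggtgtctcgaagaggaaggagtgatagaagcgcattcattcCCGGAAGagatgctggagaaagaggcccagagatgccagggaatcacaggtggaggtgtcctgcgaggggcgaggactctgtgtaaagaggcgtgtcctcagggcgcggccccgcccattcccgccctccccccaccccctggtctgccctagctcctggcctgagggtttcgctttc
Tnfsf8, chr4:63861285-63861534, minus strand: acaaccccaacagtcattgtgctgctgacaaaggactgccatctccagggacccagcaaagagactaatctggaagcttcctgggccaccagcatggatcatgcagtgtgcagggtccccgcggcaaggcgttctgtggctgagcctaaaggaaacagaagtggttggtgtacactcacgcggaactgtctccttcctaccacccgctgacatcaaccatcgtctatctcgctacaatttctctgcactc
Tnfrsf9, inner TSS, chr4:150927749-150927998, plus strand: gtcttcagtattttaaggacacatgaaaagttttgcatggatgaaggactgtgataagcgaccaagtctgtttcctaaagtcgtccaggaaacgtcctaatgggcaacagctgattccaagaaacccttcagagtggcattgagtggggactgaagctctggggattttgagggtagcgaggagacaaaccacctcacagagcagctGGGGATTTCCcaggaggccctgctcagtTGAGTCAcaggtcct
AP-1 letters were present before Tnfrsf8, Tnfsf14 and the inner Tnfrsf9 TSS, 3 of the 10 member promoters, against 6.75% of 32851 promoters. Both promoters with LSD1 in GSK held them, and neither promoter with LSD1 in Veh only did. The matches before Tnfrsf8 and Tnfsf14 are the same letters as in their GSK summit windows above, so they count once. The inner Tnfrsf9 promoter also held the NF-κB letters, found in 1.41% of promoters, and that of Tnfrsf1b the ETS letters, found in 6.91%. No member promoter held the GFI1, T-box or TCF letters, present in 2.75%, 1.12% and 4.46% of promoters.

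Among the receptors, Tnfrsf1b (chr4:145212368-145246870, minus strand), which binds TNF and lymphotoxin alpha and promotes T cell expansion, had LSD1, H3K27ac and Pol II at its promoter in Veh only. LSD1 in Veh had a −log10 p of 4.66 there and a fold percentile of 2.6, H3K27ac 6.63 with a fold percentile of 7.69, and Pol II 7.49, and none of these had a GSK peak. The LSD1 and H3K27ac peaks thus lay low in their lists. Of Veh peaks at a TSS with a −log10 p within 10% of theirs, 67.2% of LSD1 peaks (95% Wilson interval 64.3 to 70), 56.9% of Pol II peaks (53.7 to 60) and 9.2% of H3K27ac peaks were overlapped by a GSK peak. H3K4me3 was among the strongest of the 9 genes and close in both, with a −log10 p of 122 in Veh and 121 in GSK and a fold percentile of 49.4 and 47.9. No H3K4me1 or H3K4me2 was called at this TSS. A weak H3K4me2 peak of Veh only (5.87), centred 1.59 kb into the gene, ended just outside the promoter window.

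The body and flanks of Tnfrsf1b held further LSD1 peaks. In intron 1, 10.6 kb from the TSS, a Veh LSD1 peak (chr4:145236022-145236391) reached a −log10 p of 13.7 (fold 5.69) and had no GSK peak, although 69.6% of Veh distal peaks of like strength had one. H3K4me1 lay within 500 bp of it in both treatments and H3K4me2 in Veh only. At 35.6 kb, past the gene's end, LSD1 was called in both with a −log10 p of 11.5 in Veh and 4.83 in GSK, beside H3K4me1, H3K4me2 and H3K27ac of both treatments and H3K4me3 of GSK only. At 17 kb the order was the other way round, with LSD1 in GSK only (4.76) where H3K4me2 and H3K27ac were called in Veh only and H3K4me3 in GSK only.

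Tnfrsf8 (chr4:145267132-145315164, minus strand), the receptor for Tnfsf8, had LSD1 at its promoter in both treatments. The −log10 p was 8.72 in Veh and 9.87 in GSK, and the fold percentile 54.2 and 65.7. H3K4me3 had a −log10 p of 20.5 and 17.7, and H3K4me1 6.19 and 6.67. H3K4me2 was called in Veh only, weakly (6.04), and no Pol II or H3K27ac was called in either. Its intron 2 held the second strongest distal LSD1 region of the 7 loci in Veh, 14.9 kb into the gene (chr4:145299857-145300520 in Veh). There the −log10 p was 20.5 in Veh and 5.99 in GSK, and the fold percentile 94.9 and 32.1. H3K4me1 lay beside it in both treatments, and H3K4me3 was called in GSK only, with a −log10 p of 8.56. A further LSD1 peak in intron 1, 2.31 kb from the TSS (10.2), was in Veh only, and one 27.1 kb upstream stood at 10.9 in Veh and 13.1 in GSK. H3K27ac lay on that upstream region in Veh only, as the strongest distal H3K27ac peak called in Veh only in these loci (14).

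Tnfrsf9 (chr4:150920155-150946102, plus strand), expressed after activation and used as the source of signalling tails in engineered T cells, has an outer and an inner curated TSS. Pol II was called at the inner one alone, with a −log10 p of 9.95 in Veh and 9.74 in GSK. H3K4me3 was called at both, at 13.6 and 8.6 for the outer TSS and 23.7 and 18.9 for the inner one. No LSD1, H3K4me2 or H3K27ac peak touched either window. Between them, in intron 1, lay H3K27ac of both treatments with −log10 p of 10.5 and 7.86, and within the Veh peak an LSD1 peak in Veh only (chr4:150924296-150924692, −log10 p 14.9). Of like Veh distal peaks 70.5% had a GSK peak. A predicted RefSeq transcript starts 5.14 kb into the gene, within 1 kb of this peak, so that it is distal only by the curated annotation.

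Over the whole lists, 34.9% of distal Veh LSD1 peaks and 43.7% of distal GSK LSD1 peaks were overlapped by the other treatment. At Tnfrsf9 none was by the rule of at least 1 bp, with 4 distal LSD1 peaks called in Veh only and 4 in GSK only. The strongest in GSK lay 25.4 kb upstream (chr4:150894577-150895077) with a −log10 p of 11.3, beside H3K4me1 of both treatments and H3K4me3 of Veh only. The next, 5.79 kb upstream (8.91), fell on an element with H3K4me3 (47.3 and 51.8) and Pol II (8.06 and 4.27) in both treatments and H3K27ac in Veh only. In Veh, the peaks 21.3 kb and 36.8 kb past the inner TSS had −log10 p of 11.8 and 10.4. The 36.8 kb Veh peak and a GSK peak at 37.5 kb do not overlap, and both had H3K4me2 and H3K4me3 of both treatments within 500 bp. In intron 1, a Veh peak 1.98 kb past the outer TSS (5.37) and a GSK peak at 1.22 kb (6.06) also lay close without overlap.

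Cd27 (chr6:125232622-125237027, minus strand), which is present on resting T cells and binds CD70, had Pol II at the promoter in both treatments, with a −log10 p of 8.38 in Veh and 8.01 in GSK. H3K4me3 was also close, at 67.9 and 74.9. The H3K4me1 called in GSK only was weak (5.77, fold percentile 0.282) and reached in from outside the window, where a Veh peak overlapped it, so this call is one of peak width. Both distal LSD1 peaks of Cd27 were in Veh only. The stronger, 4.77 kb upstream (chr6:125241502-125242287), had a −log10 p of 12.8, where 66.1% of like Veh peaks had a GSK peak. H3K4me1 of both treatments lay within 500 bp of it, but as separate peaks. The Veh one (5.46) ended before the LSD1 peak, and the GSK one (6.22) overlapped it and had no Veh counterpart. The weaker LSD1 peak, 11.2 kb past the TSS, had a −log10 p of 6.21, where 29.5% of like Veh peaks had a GSK peak.

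Tnfrsf4 (chr4:156013695-156016589) and Tnfrsf18 (chr4:156026322-156028894), on the plus strand and beside each other, had few promoter marks. Tnfrsf18 had H3K4me3 in both, with a −log10 p of 86.2 in Veh and 63.5 in GSK, and nothing else. Tnfrsf4 had only a weak Veh H3K4me3 peak inside the gene (6.08, fold 3.68), which makes it the member with the fewest calls. Between the pair, 4.12 kb upstream of Tnfrsf18 and inside the noncoding gene Gm16008, which runs on the opposite strand, Pol II was called in both treatments with a −log10 p of 11.3 in Veh and 7.5 in GSK. H3K27ac overlapped these peaks in both, at 16.1 and 8.02. H3K4me1 lay nearby in both treatments, reaching within 1 kb of an inner Gm16008 TSS, and H3K4me3 in GSK only (9.18). LSD1 lay on the other side of Tnfrsf18, at the outer Gm16008 TSS, with a −log10 p of 13.5 in Veh and 3.98 in GSK, and 8.93 kb past the Tnfrsf18 TSS with 9.16 and 11.9.

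Of the ligands, Tnfsf8 (chr4:63832824-63861284, minus strand), which activated T cells display and which binds CD30, had 4 LSD1 peaks in its locus in Veh and none in GSK. A pair lay in the promoter window, with −log10 p of 7.95 and 5.06, and of like Veh peaks at a TSS 87.5% and 73.3% had a GSK peak. The strongest was in intron 2, 13.8 kb into the gene (chr4:63847130-63847662), with a −log10 p of 12.4 (fold 5.63), and the weakest was 8.83 kb upstream (4.01). Of Veh distal peaks like these, 64.5% and 7.91% had a GSK peak. At the promoter, H3K27ac (7.82) and Pol II (7) were also called in Veh only, with 17.5% and 53.9% of like Veh peaks overlapped in GSK. H3K4me3 had the same place in both lists, with a −log10 p of 34.8 in Veh and 31.4 in GSK and folds of 3.66 and 3.65, and H3K4me1 was called in both (9.34 and 6.89). A second element 18.8 kb into the gene, also in intron 2, had H3K27ac in both treatments, at 12.9 and 7.48, and Pol II in Veh only (4.98).

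Tnfsf14 (chr17:57189474-57194181, minus strand), which binds HVEM and the lymphotoxin beta receptor, had LSD1 and Pol II at its promoter in both treatments. LSD1 stood at a −log10 p of 4.92 in Veh and 9.6 in GSK, with a fold percentile of 11.1 and 66.8. Of the 2 promoters with LSD1 in both treatments, this one had the larger difference in rank. Pol II stood the other way, at 13.7 in Veh and 6.57 in GSK, with a fold percentile of 88.9 and 68.9. H3K4me3 was 41.8 and 29.7, and H3K4me2 (9.07) was called in Veh only, where 73% of like Veh peaks had a GSK peak. An element 5.73 kb past the TSS had LSD1 of both treatments (8.11 and 4.62) with H3K4me1 and H3K4me2 of both and H3K27ac in Veh only.

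The adaptor Traf1 (chr2:34941750-34961772, minus strand), which T cells induce on activation and which binds TRAF2 and several of these receptors, had H3K4me3 at its TSS in both treatments (61.6 in Veh and 56.5 in GSK) and no LSD1 or Pol II there. Pol II lay 2 kb upstream instead, with a −log10 p of 12.3 in Veh and 17.5 in GSK and a fold percentile of 60.9 and 84.1, and no curated or predicted TSS of Traf1 falls there. H3K27ac overlapped it in both, at 18.8 and 8.82. Its Veh peak reached into the promoter window and its GSK peak (chr2:34962819-34963478) stopped just outside, so the Veh-only promoter call of H3K27ac at Traf1 is one of peak width.

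Traf1 also held the strongest LSD1 peak of the 7 loci. It lay 22.8 kb from the TSS, past the end of the gene (chr2:34938678-34939349), with a −log10 p of 29.9 in Veh and 14.7 in GSK and a fold percentile of 97.4 and 86.6. H3K4me1, H3K4me2 and H3K4me3 lay beside it in both treatments, and H3K27ac and Pol II in Veh only. The 3 LSD1 peaks upstream of Traf1, at 7.89, 15.6 and 20.6 kb, were all called in Veh only. The middle one (chr2:34977061-34977545) had a −log10 p of 17.5, the strongest Veh peak of these loci without a GSK peak, and 75.7% of like Veh peaks (71.3 to 79.7, n = 404) had one. H3K4me1 was present there in both, H3K27ac and Pol II in Veh only, and H3K4me3 in GSK only (6.87).

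**Figure D2:**
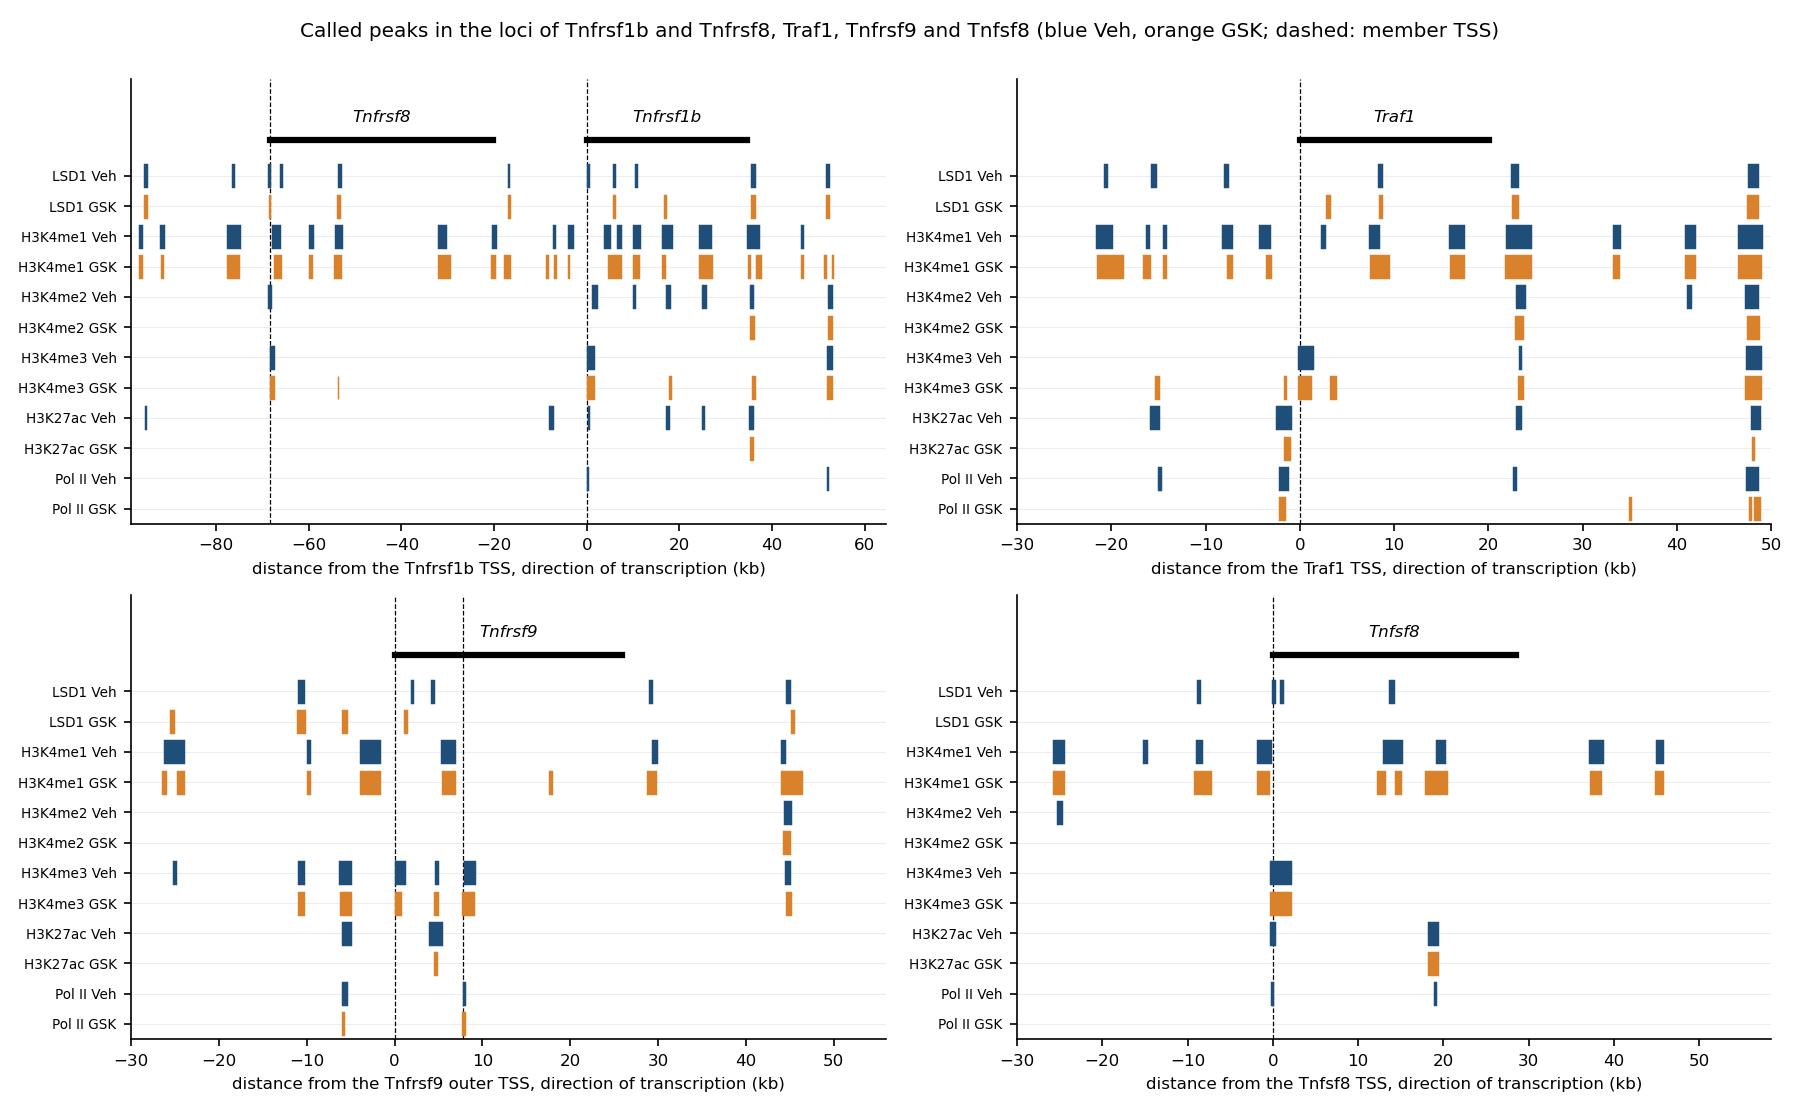
Called peaks of the 12 lists around Tnfrsf1b and Tnfrsf8, Traf1, Tnfrsf9 and Tnfsf8, drawn to scale by distance from a TSS in kb, with gene bodies as black bars, Veh peaks in blue and GSK peaks in orange. Most blue H3K4me1 peaks have an orange one at the same distance, while the LSD1 row of Tnfsf8 holds 4 blue peaks and no orange one and that of Tnfrsf9 has orange and blue peaks at different distances. Some Veh and GSK LSD1 peaks of Tnfrsf9 lie close together.

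Over all 7 loci there were 4.02 distal LSD1 peaks per 100 kb in Veh and 2.57 in GSK. The loci of all genes had 0.623 and 0.501, and those of genes with promoter H3K4me3 0.877 and 0.704. H3K4me1 stood at 8.53 and 9.65 per 100 kb, against 2.21 and 2.56 around genes with promoter H3K4me3, and H3K27ac at 1.93 and 0.804 against 0.245 and 0.0749. Each gene's own locus could be ranked among those 12997 genes. For Veh LSD1 the members ran from percentile 85.5 (Tnfsf8) to 99.4 (Traf1). In GSK, Cd27 and Tnfsf8 had no distal LSD1 peak, while Tnfrsf9 (98.6), Tnfrsf1b (97.9), Traf1 (97.1) and Tnfrsf8 (97) were near the top. The H3K4me1 peaks were many but low in fold, with a median fold percentile of 13.4 in Veh and 13.8 in GSK. Because the members were chosen with earlier results of these data known, the densities and ranks describe these genes only.

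**Figure D3:**
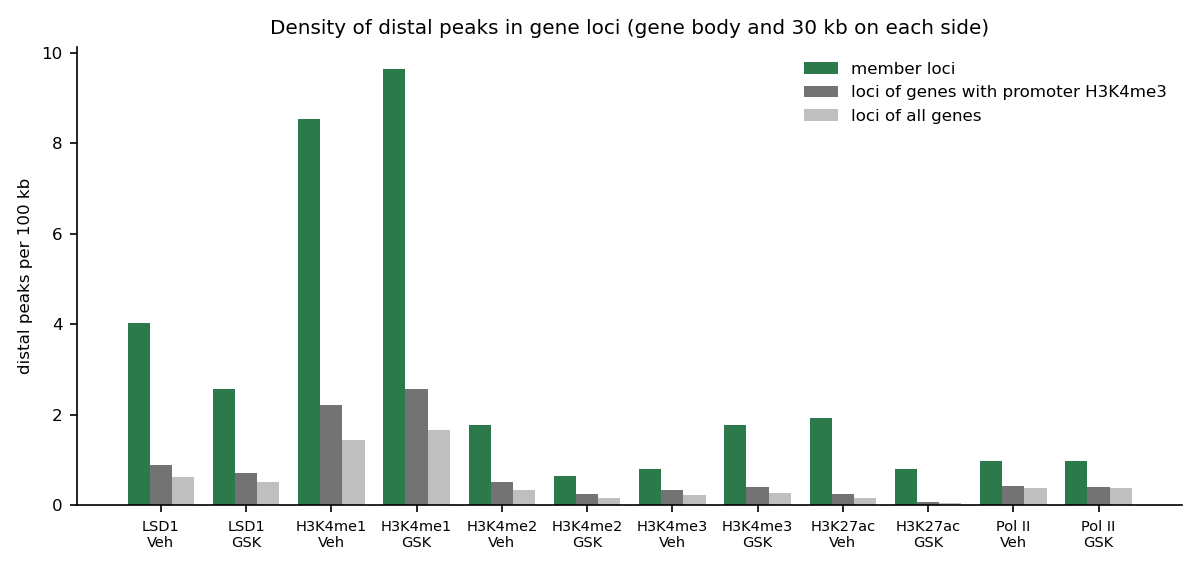
Distal peaks per 100 kb for each of the 12 lists in the 7 member loci (green), in the loci of genes with promoter H3K4me3 in both treatments (dark grey) and in the loci of all genes (light grey). The green bars are the tallest in every list, reaching 9.65 for H3K4me1 in GSK.

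Most distal H3K4me1 peaks were shared by the treatments, and most distal Veh LSD1 peaks were not. The lists differ in threshold and width, with a median width in Veh of 822 bp for H3K4me1 and 449 bp for LSD1. The part of this in the shares was not tested. Of 25 distal Veh LSD1 peaks, 9 were overlapped by a GSK peak, or 36% (95% exact interval 18 to 57.5, counting error only), close to the 34.9% of all distal Veh LSD1 peaks. Counting a GSK peak within 1 kb gave 44% instead. At member promoters the share was 2 of 5, 40% (5.27 to 85.3), where 83% of all Veh LSD1 peaks at a TSS were overlapped, which lies within that interval. In GSK, 9 of 16 distal LSD1 peaks (56.2%, 29.9 to 80.2) were overlapped in return, against 43.7% of the list. For H3K4me1, 50 of 53 distal Veh peaks were overlapped (94.3%, 84.3 to 98.8) against 87.7% of the list. Thus 16 distal LSD1 regions were called in Veh only, 9 in both and 7 in GSK only, and 12 of the 16 had H3K4me1 within 500 bp in both treatments, 1 in GSK only and 3 in neither. Over the whole lists, 43.8% of distal regions called in Veh only had H3K4me1 of both treatments that close. Of the 9 shared regions, 8 had it, against 75.2% of shared distal regions in the lists, and H3K4me1 peaks are dense in these loci. The H3K4me1 peaks of both treatments need not overlap each other, as at Cd27.

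**Figure D4:**
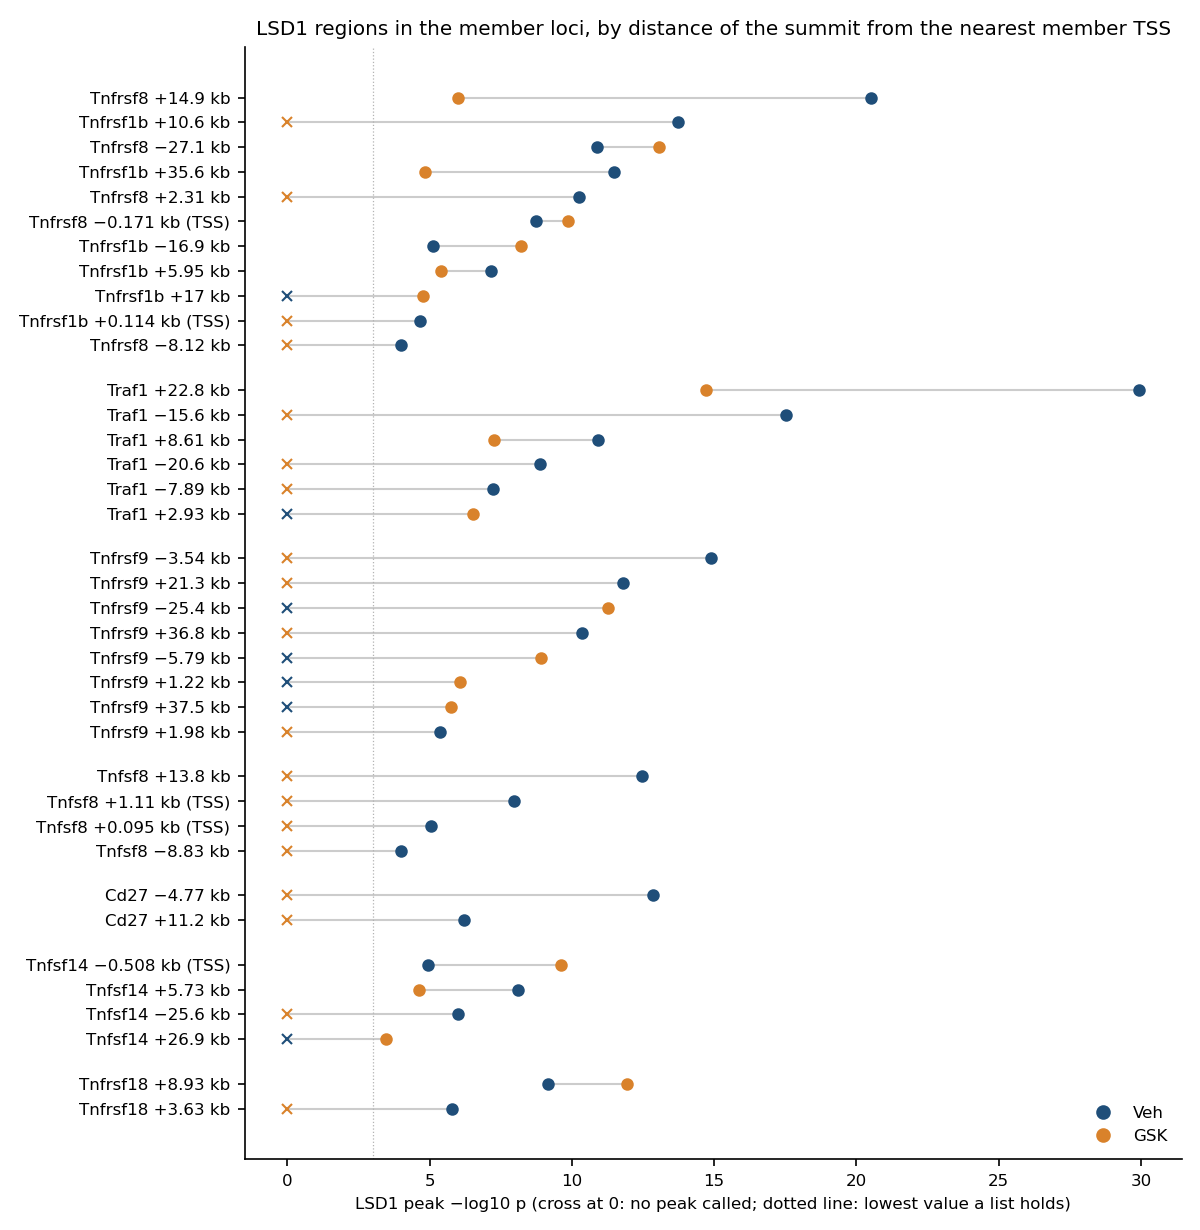
LSD1 regions at the promoters and distal sites of the 9 genes, grouped by locus and named by the distance of the summit from the nearest member TSS (minus upstream, plus downstream); the axis gives −log10 p in Veh (blue) and GSK (orange), joined by a line, with a cross at 0 for no call. The 4 Tnfsf8 regions and both Cd27 regions have blue points and orange crosses, and the strongest region, 22.8 kb past the Traf1 TSS, is at 29.9 in Veh and 14.7 in GSK.

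The other marks had fewer distal regions. H3K27ac was called in Veh only at 8, in both at 4 and in GSK only at none, and H3K4me2 in Veh only at 7, in both at 4 and in GSK only at none. The shares of Veh peaks overlapped, 33.3% for H3K27ac and 36.4% for H3K4me2, were near those of the whole lists, 29.1% and 38.8%, and the part of depth in them was not tested. With the Veh list shortened to the length of the GSK list, the distal Veh peaks were 4 of H3K27ac, against 5 in GSK, and 5 of H3K4me2, against 4. H3K4me3 differed in the other direction, with 7 distal regions in GSK only, 4 in both and 1 in Veh only. Of its 11 GSK peaks, 4 were overlapped in Veh (36.4%, 10.9 to 69.2) against 77.7% of the list. Of the 7 regions, 3 were in the Traf1 locus, 3 in that of Tnfrsf1b and Tnfrsf8 and 1 beside Tnfrsf18. They were weak, with −log10 p from 5.66 to 9.18, and with lists of equal length the distal GSK peaks were 7 against 5 in Veh. Of GSK distal H3K4me3 peaks like the 3 of the Tnfrsf1b and Tnfrsf8 locus, 57.9%, 27.1% and 64.1% were overlapped in Veh. For peaks like that beside Tnfrsf18 the share was 71.3%. Of 6 distal Pol II peaks in each treatment, 3 Veh peaks were overlapped (50%, 11.8 to 88.2) against 14.3% of the list, namely those upstream of Traf1, Tnfrsf9 and Tnfrsf18. Their −log10 p in Veh was 12.3, 8.06 and 11.3. Of Veh distal peaks like that of Tnfrsf9, 51.9% were overlapped, and of those like that of Tnfrsf18, 75.5%.

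**Figure D5:**
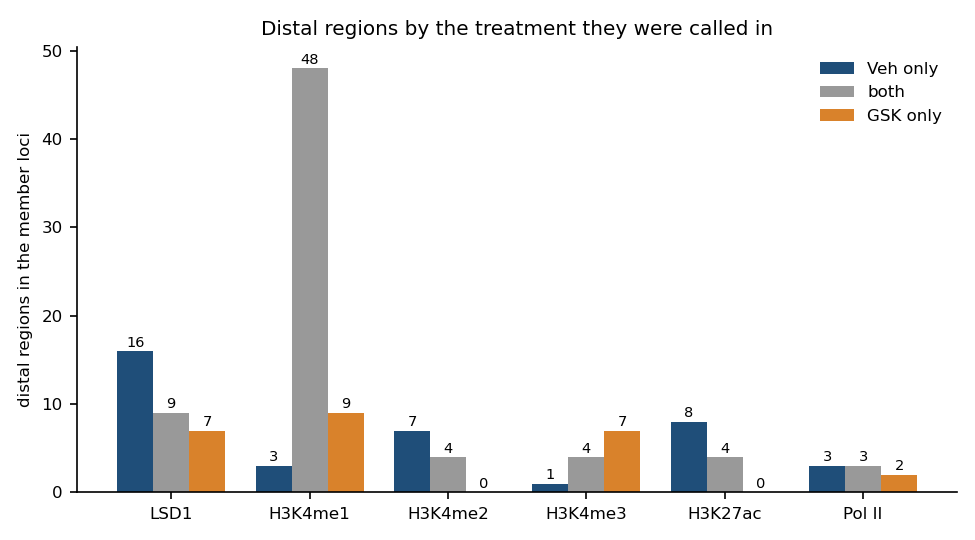
Number of distal regions in the 7 member loci called in Veh only (blue), in both treatments (grey) and in GSK only (orange) for each antibody. H3K4me1 has 48 regions in both, LSD1 16 in Veh only against 9 in both, and H3K4me3 7 in GSK only.

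The wider family was read from 3 lists of its other genes, at promoters alone. Over all genes, H3K4me3 was called in both treatments at 49.6%, LSD1 at 36.3% in Veh and 41.6% in GSK, Pol II at 29.3% and 24.9% and H3K27ac at 20.5% and 8.58%. Of 19 other receptors, 12 had H3K4me3 in both treatments, 4 had Pol II in Veh and 2 in GSK, and 3 had H3K27ac in Veh and none in GSK. Pol II was in Veh only at Tnfrsf13b (fold 5.37) and Tnfrsf12a (4.73), the receptors for APRIL and BAFF and for TWEAK. LSD1 was called at 4 of the 19 in Veh and 5 in GSK, in Veh only at Tnfrsf12a and Fas and in GSK only at Relt, Tnfrsf13c and Ltbr. Over all genes, Pol II was in Veh only at 7.33%, and LSD1 was in Veh only at 4.44% and in GSK only at 9.74%. Of 16 other ligands, 9 had H3K4me3 in Veh and 7 in GSK, 4 had Pol II in both, and LSD1 was called at 4 in Veh and 5 in GSK, with the death ligand Fasl in GSK only (fold 4.07).

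The third list held 23 other adaptors and NF-κB genes. All 23 had H3K4me3 in both treatments, 17 had LSD1 in Veh and 22 in GSK, and none had LSD1 in Veh only, a pattern of 4.44% of all genes. These counts stand beside the 69.5% and 79% with LSD1 among all genes with H3K4me3 in both. Traf5, an adaptor of several of these receptors, had LSD1 in GSK only (fold 3.65) and Pol II in Veh only, with a −log10 p of 23.4 and a fold percentile of 97.1. Pol II was also in Veh only at Tnfaip3 (9.71), an inhibitor of NF-κB signalling, and at Tradd (5.68) and Traf3 (5.43), and in GSK only at Traf4 (6.42). Chuk, an IκB kinase subunit, had LSD1 in GSK only, with a −log10 p of 11. Pol II was thus in Veh only at 4 of the 23 and in GSK only at 1, against 13.9% and 5.15% of genes with H3K4me3 in both. LSD1 was in GSK only at 5 of the 23 and in Veh only at none, against 16.7% and 7.21% of such genes. H3K27ac was called at 14 of the 23 in Veh and 8 in GSK.

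Few genes shared a member's presence or absence of a promoter peak in all 12 lists. For Tnfrsf1b these were 4, the nearest by mean difference in fold percentile being Mgst2 (18.3) and Rabepk (19.9), and for Tnfsf8 they were 5, led by Gm12250 (7.34) and Zbtb32 (12.5). Cd27 shared its pattern with 11 genes, the nearest being Ly6c2 (4.02) and Cd52 (10.8), and Tnfrsf9 with 15, the nearest being Il21r (7.81) and Cxcr6 (8.19). Traf1 had 21, led by Arrb2 (3.44) and Gm21011 (3.94). The patterns of Tnfrsf8 (92 genes, led by Ccl4 at 7.4 and Bcl3 at 9.81) and Tnfsf14 (100 genes, led by Psap at 11.6 and Tet3 at 12.8) were common. Tnfrsf4 and Tnfrsf18, called in under 3 lists, shared theirs with 12 and 152 genes.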

How the data were processed

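Each of 6 antibodies had 1 Veh and 1 GSK library, and each of these 12 libraries had 1 peak list. The 4 input libraries have no peak list of their own. Per the study's methods and labels, the authors aligned reads uniquely to mm10 with Bowtie2, took out duplicates with Samtools and ran MACS2 to call peaks. The input libraries served as the control in peak calling. For comparing signals the study drew equal numbers of reads, and whether peaks were called on such subsets is not given in the sources used here.

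The deposited lists give each peak a fold enrichment, a −log10 p-value, a −log10 q-value and a score, and the authors' narrow lists (LSD1, Pol II) add a summit. Narrow lists begin at a −log10 p of 3 and broad lists at a −log10 q of 3.01. The score was used only to check the columns.

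Overlap (at least 1 bp), promoter windows, fold percentiles and motif letters were computed in Python 3.11.15 with numpy 2.4.6 and scipy 1.17.1, after a check on simulated peaks. Positions are from the peak summit, or the midpoint in broad lists. Peaks of like strength are those of the same list and class with a −log10 p within 10%. Exact (Clopper-Pearson) intervals are given for member shares and Wilson intervals for lists, both covering counting error only. Reference annotation and promoter sequences came from RefSeq (GRCm38.p6, the mm10 assembly), where all 9 genes matched.

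With 1 library per group there was no test. Genes named outside the members had a promoter peak of LSD1 or Pol II in 1 treatment only, or shared a member's pattern over the 12 lists. Members, lists and motifs were chosen with earlier results of these data known.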

Additional observations from a re-analysis of the deposited data

How the results depend on the processing

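Of 132 alternative values for 26 reported values, 103 moved by less than their interval or 1.5 times and 29 by more. Some of the 103 could not move. Lists of equal length leave the shorter list of each pair as it was, and a change of flank cannot alter the LSD1 peaks at member promoters. The shares of LSD1 peaks overlapped did not move by that measure under any alternative run. For the promoter share, with 5 peaks and an interval of 5.27 to 85.3, that measure allows most possible values. At promoters, requiring the peak midpoint in the window left 1 H3K4me1 member in Veh and 1 in GSK. A window of 2.5 kb gave 4 members with H3K4me2 in Veh and 1 with H3K27ac in GSK, as predicted transcripts also did for H3K27ac (1). Lists of equal length left 1 for H3K4me2 and 1 for H3K27ac in Veh. A stricter threshold left 2 for H3K4me1 in GSK, 1 for H3K4me2 in Veh and 1 for H3K27ac in Veh. Among distal peaks, a flank of 10 kb gave 35 of H3K4me1 in Veh, 39 in GSK and 3 of H3K4me3 in Veh. A flank of 50 kb gave 8 of H3K4me2 in GSK, 9 and 17 of H3K4me3 in Veh and GSK, and 12 and 10 of Pol II. Lists of equal length gave 5 of H3K4me2 in Veh, 7 of H3K4me3 in GSK and 4 of H3K27ac in Veh. The stricter threshold gave 4 and 1 of H3K4me2, 3 and 7 of H3K4me3, 1 of H3K27ac in GSK and 2 of Pol II in GSK. The 2.5 kb window gave 3 of H3K27ac and 3 of Pol II in GSK. Apart from windows and flanks, which change the bases counted, the cause was not tested. No paired analysis was possible because each antibody and treatment had 1 library, and for the same reason no library could be left out. Depths differed between the treatments, most of all for H3K27ac. A peak called in 1 treatment only may lie just under the threshold in the other.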
